A study of Mus musculus with 12 samples.

Results

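The genes of the synaptic vesicle release machinery were followed in dorsal root ganglia (DRG) of mice after nerve injury and after a change of housing. The members are 37 genes chosen by name, out of 44345 gene names in the count table, and all 37 passed the filter on low counts that left 16238 genes for testing. They comprise 7 synaptotagmins, 4 SNAREs, 5 partners of the SNAREs, 6 genes of priming and of the active zone, 3 Rab3 GTPases, 4 other vesicle membrane proteins, 3 synapsins, 3 vesicular glutamate transporters and 2 genes of vesicle retrieval.

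RNA came from the sciatic L4 to L6 DRG of C57BL/6 mice aged 5 to 8 weeks. Mice were kept for 10 days in standard housing (SH) or in environmental enrichment (EE), a larger cage with more stimulation, and then underwent sham surgery or sciatic nerve axotomy (SNA), with the ganglia taken 24 h later. Each of the 4 groups held 3 samples (SH Sham and SH SNA from standard housing, EE Sham and EE + SNA from enrichment), every sample being a pool of the ganglia of 2 mice. The EE Sham libraries belong, by the study's account, to a dataset described earlier, so that dataset and group cannot be told apart wherever EE Sham is compared with another group.

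A synaptic vesicle is filled with transmitter by a vesicular transporter, held near the membrane by synapsins and Rab3, docked and primed at the active zone by RIM and Munc13 proteins, and fused by the SNAREs synaptobrevin, syntaxin and SNAP-25. Complexins clamp the assembled SNAREs, synaptotagmins sense the calcium that triggers fusion, NSF and the SNAP adaptors take the SNAREs apart afterwards, and dynamin and amphiphysin help to retrieve the membrane. Libraries of whole DRG do not show which cells made an RNA. Sensory neurons make such RNAs in their cell bodies, and their release sites lie far away in the spinal cord and in the periphery. Most of these neurons use glutamate.

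The libraries held 11343579 to 22871460 reads assigned to genes. All 6 injury response genes examined (Jun, Atf3, Sox11, Gal, Sprr1a and Gap43) were higher after SNA in both housings at an adjusted P-value of 0.05. The 14 sensory neuron markers summed to 18960 to 23090 CPM (reads of a gene scaled to a common library total) per library, and markers of spinal cord neurons and oligodendrocytes to 0.607 to 1.76 CPM, with Opalin and Olig2 at 0 in every library. A pair of libraries stood apart. Skeletal muscle markers summed to 1102 CPM in SH SNA replicate 2, against 149 and 152 CPM in the other SH SNA libraries, and neutrophil markers to 726 CPM in EE + SNA replicate 3, against 169 and 150 CPM in the other EE + SNA libraries. Within the muscle list, Pvalb had a log2 fold change of 0.18 after SNA in SH and the others 2.21 to 3.48, so the sums may hold RNA of other cells. The part of muscle and neutrophil cells in the results was not tested. The counts of called genes without these libraries are given below.

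Levels were compared between genes as FPKM, which are read counts divided by gene length and library total. In SH Sham, the complexin Cplx1 was the highest of the 37 genes at 486 ± 10.1 FPKM (SD, n = 3), and the priming factor Unc13b the lowest at 1.93 ± 0.0994 FPKM, a 252-fold range. Averages of at least 100 FPKM were reached by 7 members, namely Cplx1, the SNARE Snap25, Syt11, the synaptobrevin Vamp2, Rab3a, Syt4 and the vesicle protein synaptophysin (Syp). At the other end, the active zone genes Rims1, Rims2, Bsn and Pclo, with Rab3b, Slc17a8 and Unc13b, stayed under 10 FPKM. Of the 36 pairs of neighbours in this order, the samples of 23 overlapped in SH Sham, such as Vamp2 at 141 ± 5.23 FPKM beside Rab3a at 135 ± 6.03 FPKM, and those of 13 did not.

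Within families, the levels were unequal. Among the calcium sensors, Syt11 reached 269.7 ± 5.43 FPKM and Syt4 127 ± 9.48 FPKM in SH Sham. Both are synaptotagmins that are known to bind calcium poorly or not at all. Syt2 and Syt1, which are fast sensors of release, stood at 49.5 ± 3.0 FPKM and 25.3 ± 1.78 FPKM in SH Sham. Syt9 lay between them at 38.1 ± 3.12 FPKM. Of the vesicular glutamate transporters, Slc17a6 (VGLUT2) at 71.5 ± 3.39 FPKM and Slc17a7 (VGLUT1) at 67.0 ± 3.03 FPKM overlapped in SH Sham, and Slc17a8 (VGLUT3) stood far below at 2.85 ± 0.220 FPKM. After SNA the order of the 37 genes shifted little. Syt4 moved from sixth place to rank 4 in SH SNA, at 189 ± 14.2 FPKM, above Vamp2 at 145 ± 6.47 FPKM.

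**Figure D1:**
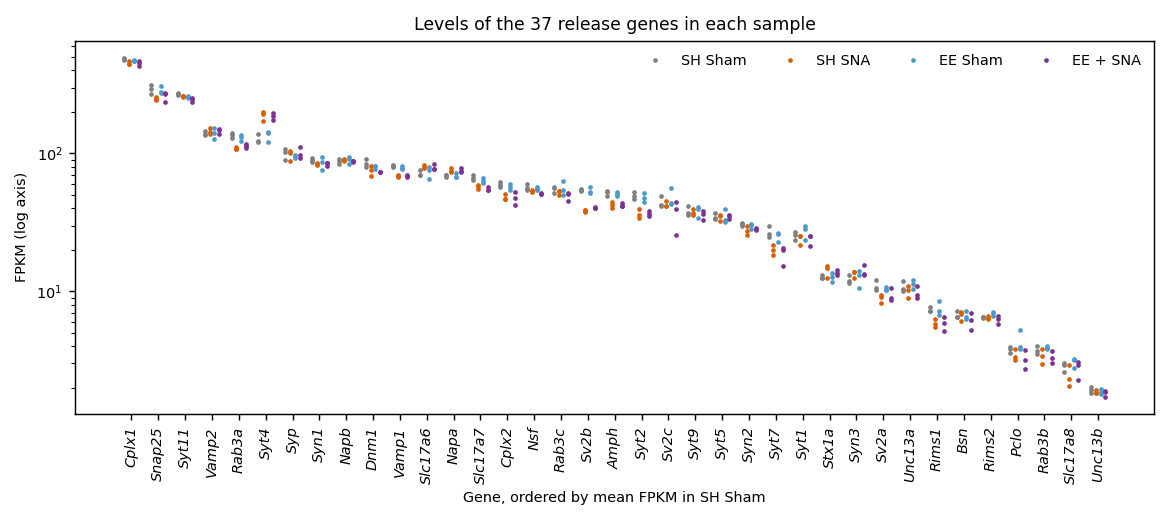
FPKM (log axis) of each of the 37 release genes in each of the 12 samples, with the genes ordered by their mean in SH Sham and the samples coloured by group. Levels run from Cplx1, at 486 FPKM in SH Sham, to Unc13b, at 1.93 FPKM, and Syt4 has its 6 SNA samples above its 6 sham samples.

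After SNA in standard housing, 11 of the 37 genes changed at an adjusted P-value of 0.05 in the quasi-likelihood test of edgeR. Syt4 rose, and 10 fell: the synaptotagmins Syt2 and Syt7, the synaptobrevin Vamp1, the complexin Cplx2, the active zone gene Rims1, Rab3a, the vesicle proteins Sv2a and Sv2b, the transporter Slc17a7 and amphiphysin (Amph). Slc17a7 fell by 13.1% and Sv2b fell by 28.7%, the smallest and the largest of these falls. That 27.0% of the members fell stood beside 5.17% of all genes tested that were called lower in this comparison, and the 1 member that rose stood beside 6.06% called higher. At an unadjusted P-value of 0.05, 12 members were lower and 4 higher, where 11.8% of all genes were lower and 2178 of the 16238 were higher. The higher members, 10.8% of the 37, were no larger a share than that of all genes. The median log2 fold change of the 37 genes was -0.08, against 0.00 for all genes, and 29 of the 37 lay below 0, or 78.4%, against 49.0% of all genes.

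In the ganglia of EE mice, SNA was followed by a change in 5 of the 37 genes, all of them among the 11 above. Syt4 rose, and Syt2, Syt7, Sv2b and Amph fell. Of the members 10.8% fell, where 2.33% of all genes were called lower and 2.51% higher. Here 12 members were lower and 1 higher (2.7%) at an unadjusted P-value of 0.05, with 10.4% of all genes lower and 1666 of the 16238 higher. The median log2 fold change of the members was -0.13. The SH and EE injury comparisons share no samples. Their log2 fold changes had the same sign in 33 of the 37 genes, or 89.2%, and in 74.1% of all genes tested, and correlated across the members with r = 0.871 (Spearman's rho = 0.821), a description over genes that share libraries and are not independent. The 4 genes with opposite signs were Syt5, Napb, Rims2 and Syp, none of which was called.

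The samples of the groups did not overlap for 18 members in SH, 15 lower and 3 higher after SNA, and for 15 members in EE, 13 lower and 2 higher. The share of all genes without overlap was 29.4% in SH and 25.8% in EE. Beside the called genes, Snap25, Syt11, Cplx1, Nsf and Syn1 lay lower without overlap in SH, and Napa and Slc17a6 higher.

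**Figure D2:**
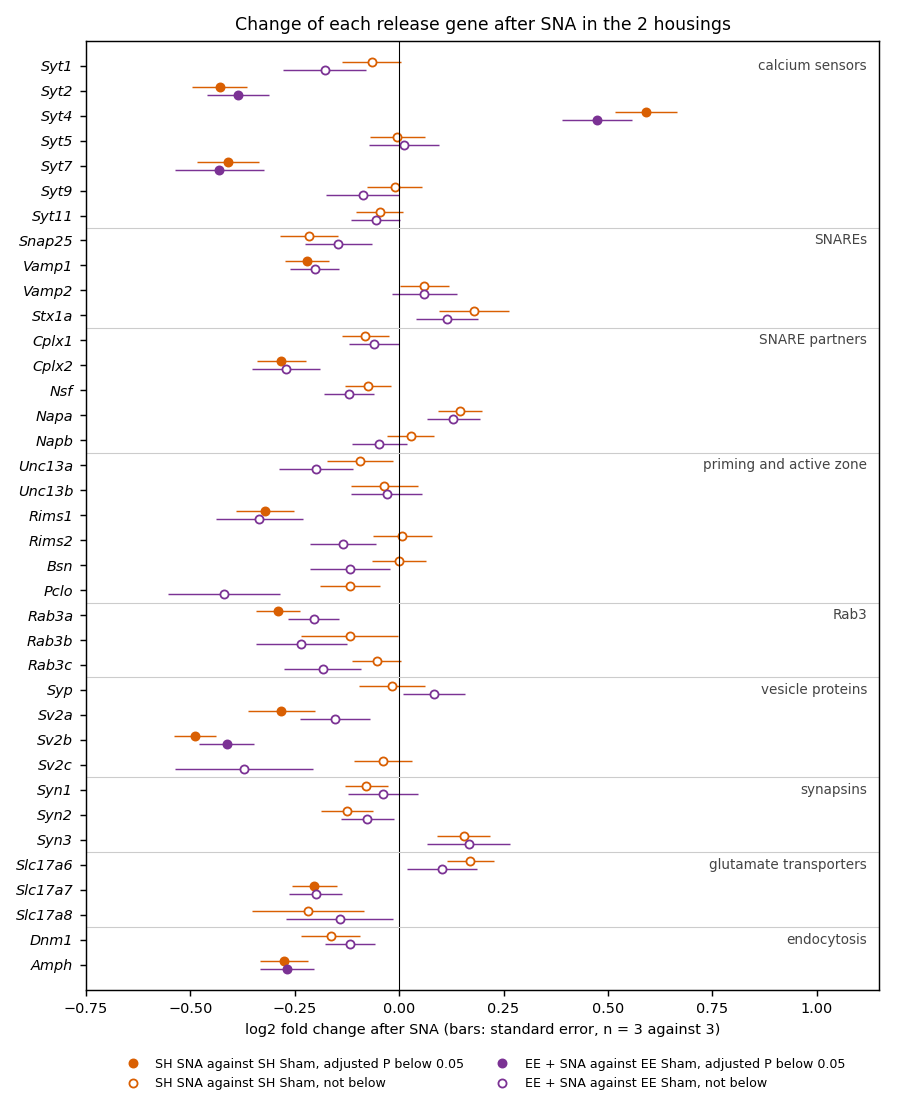
Log2 fold change after SNA of the 37 release genes, grouped by role, with the standard error as bars (3 samples against 3), for SH SNA against SH Sham (orange) and EE + SNA against EE Sham (purple). Filled points have an adjusted P-value below 0.05, 11 in SH and 5 in EE. Syt4 lies to the right of 0 and the other filled points to the left, and with counts scaled to sensory neuron markers in place of all genes the filled points keep their side while 17 of the open points in SH and 9 in EE change theirs.

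The direction of the smaller changes depended on what the counts were set against. RNA of whole ganglia mixes cell types, and fewer neurons and less RNA per neuron cannot be told apart in it. The 14 sensory neuron markers had a median log2 fold change of -0.19 after SNA in SH, with 3 of 14 lower (Isl1, Nefh and Rbfox3) by the edgeR test, and of -0.12 in EE, with 1 lower (Isl1). At an unadjusted P-value of 0.05, 7 of the 14 were lower in SH and 6 in EE, and none was higher in either. The markers did not move alike. They ran from -0.42 (Isl1) to 0.03 (Tubb3) in SH and from -0.40 (Isl1) to 0.07 (Thy1) in EE. Tubb3 and Thy1 lay above 0 in both housings, and Uchl1 in EE. Their summed level was 21450 to 23090 CPM in SH Sham and 19220 to 20580 CPM in SH SNA, and 20180 to 21000 CPM in EE Sham and 18960 to 20110 CPM in EE + SNA, without overlap in either housing. The 37 release genes summed to 12620 to 12980 CPM in SH Sham, 11960 to 12310 CPM in SH SNA, 12080 to 13600 CPM in EE Sham and 11820 to 12420 CPM in EE + SNA.

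When the libraries were scaled to the 14 neuron markers, a setting chosen after the data were seen, the median of all genes moved to 0.18 in SH and 0.12 in EE. Sv2b, Syt2 and Syt7 still fell in SH, and Sv2b and Syt2 in EE. Syt4 rose in both, and Napa was called higher as well in EE. The falls of Vamp1, Cplx2, Rims1, Rab3a, Sv2a, Slc17a7 and Amph in SH lost the call, with their log2 fold changes still below 0. Against the neuron markers 7 members were called higher in SH: Syt4, the SNAREs Vamp2 and Stx1a, the SNAP adaptors Napa and Napb, Syn3 and Slc17a6. With this scaling 3869 of the 16238 genes were called higher and 310 lower in SH, against 984 and 839 with the usual scaling. In EE 1433 were called higher and 207 lower. The 7 of 37 members called higher in SH were thus a smaller share than that of all genes. The members called lower, 3 in SH and 2 in EE, were few but a larger share than that of all genes. A member at a log2 fold change near 0.18 had moved as the median gene had.

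**Figure D3:**
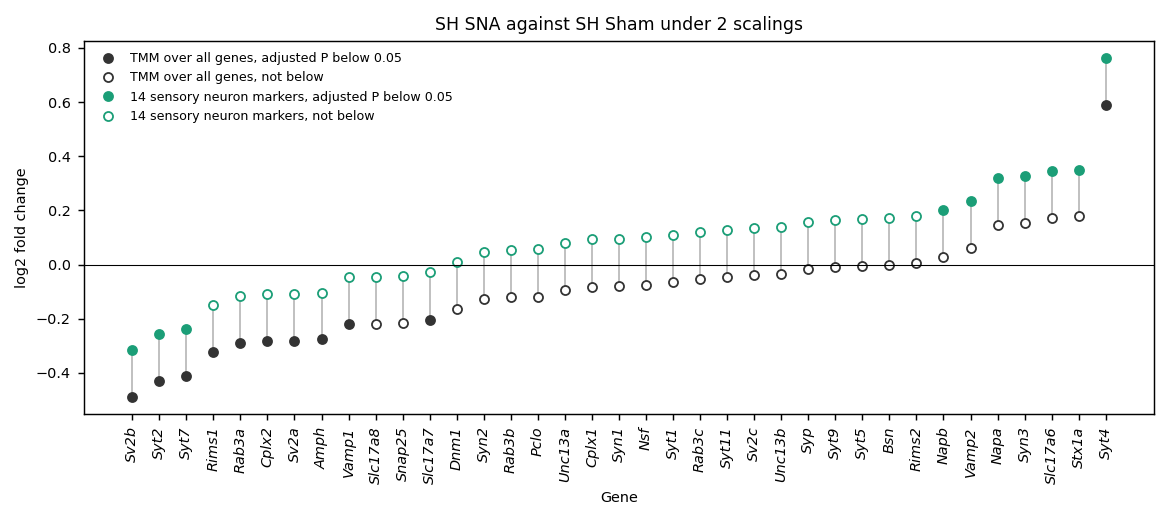
Log2 fold change of the 37 release genes in SH SNA against SH Sham with counts scaled over all genes by TMM (black) and to 14 sensory neuron markers (green). Filled points have an adjusted P-value below 0.05. Every gene lies higher in green, and Sv2b, Syt2, Syt7 and Syt4 are filled under both scalings.

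Other cell types also moved with the injury. Of 8 markers each of satellite glia and myelinating Schwann cells, 2 and 1 were higher in SH SNA and 1 and 0 in EE + SNA against its sham group. At an unadjusted P-value of 0.05 they were 2 and 6 in SH and 3 and 5 in EE, and the Schwann cell list had median log2 fold changes of 0.28 and 0.41. Satellite glia markers summed to 3164 to 3428 CPM in SH Sham, 3303 to 3709 CPM in SH SNA, 2818 to 3280 CPM in EE Sham and 3299 to 3487 CPM in EE + SNA, and Schwann cell markers to 7158 to 8756, 7720 to 11360, 6328 to 9063 and 9385 to 12240 CPM in the same order. Of the 7 macrophage markers tested 2 were higher in SH SNA and none in EE + SNA by edgeR, 3 of them at an unadjusted P-value of 0.05 in each, and they summed to 45.2 to 52.6, 56.4 to 79.0, 49.0 to 54.3 and 58.5 to 86.5 CPM. Fibroblast and endothelial markers summed to 598.5 to 676 CPM in the sham groups, 609 to 829 CPM in SH SNA and 741 to 916 CPM in EE + SNA, with 0 of 8 called in SH and 1 (Dcn) higher in EE, and 0 and 5 of 8 higher at an unadjusted P-value of 0.05. None of the neutrophil, skeletal muscle and sympathetic markers was called by edgeR in either housing, with 3, 6 and 1 of them higher in SH SNA and 2, 0 and 0 in EE + SNA at an unadjusted P-value of 0.05. The part of these cells in the results on the release genes was not tested.

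Among the calcium sensors, Syt4 was the member that rose. Syt4 is a synaptotagmin of dense-core and other vesicles that lacks the usual calcium response, and its RNA is known to follow neuronal activity. Its level was 541, 468 and 476 CPM in the SH Sham samples and 786, 766 and 680 CPM in the SH SNA samples. In the EE Sham samples it was 574, 463 and 546 CPM, and in the EE + SNA samples 786, 677 and 744 CPM. Every SNA sample lay above every sham sample of both housings. The increase was of 50.6% in SH (log2 fold change 0.59 ± 0.07 SE, adjusted P-value 0.000308) and of 38.8% in EE (0.47 ± 0.08, adjusted P-value 0.00717). Of the exon bases of Syt4, 14.5% are shared with the antisense gene Gm26658 in GENCODE M21. The strand setting of the counting is not given in the sources used here. Reads of the 2 genes in that stretch could therefore not be told apart. Other members with shared exon bases have the same limit. The largest of these shares were 16.8% in Syp, 14.1% in Syn3, 9% in Rab3b and 5.13% in Syt7.

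Syt2, a fast calcium sensor of release (chr1:134646677-134762593, plus strand, mm10), measured 322, 338 and 361 CPM in SH Sham and 235, 248 and 273 CPM in SH SNA. The EE Sham samples held 367, 322 and 306 CPM and the EE + SNA samples 267, 243 and 255 CPM. Each SNA sample was thus below each sham sample. Syt2 fell by 25.8% in SH (log2 fold change -0.43 ± 0.07, adjusted P-value 0.00127) and by 23.5% in EE (-0.39 ± 0.07, adjusted P-value 0.0120).

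Syt7, a slow sensor of high calcium affinity (chr19:10389090-10453180, plus strand), stood at 183, 173 and 205 CPM in SH Sham against 129, 140 and 152 CPM in SH SNA. In EE Sham the samples gave 189, 157 and 182 CPM, and in EE + SNA 141, 143 and 108 CPM. The lowest value was in EE + SNA replicate 3, the library with the high neutrophil markers. Syt7 fell by 24.8% in SH (log2 fold change -0.41 ± 0.07, adjusted P-value 0.00336) and by 25.8% in EE (-0.43 ± 0.11, adjusted P-value 0.0385). The EE call was lost without EE Sham replicate 1 (adjusted P-value 0.110), EE Sham replicate 3 (0.146), EE + SNA replicate 1 (0.0672) or EE + SNA replicate 3 (0.0741).

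The other 4 synaptotagmins were not called in either housing. The log2 fold changes of Syt1 (another fast sensor of release), Syt5, Syt9 and Syt11 lay between -0.07 and 0.00 in SH. In EE they lay between -0.18 and 0.01.

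The promoters of the members were searched for letters bound by factors known from nerve injury and neuronal genes: the cyclic AMP response element (CRE, TGACGTCA), the AP-1 site (TGANTCA) and, for the repressor REST, the core of its RE1 site (AGCACC, any 2 bases, GGACAG), on both strands. RefSeq windows of GRCm38.p6 from 250 bases before to 50 bases after a gene's start were given for 30 of the 37 members, and not for Syt4, Syt5, Syt7, Snap25, Vamp2, Syn3 and Rims2. A CRE stood in the windows of Napa and Syn1, 2 of 30 members (6.67%), against 2.03% of all genes with a window. An AP-1 site was found for Syt2 alone, 3.33% against 8.97% of all genes. It stood in the Syt2 window printed below, and another window of Syt2 held none. The RE1 core stood in none of the 30, with 0.0592% of all genes. At so low a share over all genes, its absence from 30 members carries no information. Only exact letters were searched, so RE1 sites that differ from them are missed. The Syn1 sequence below holds agcaccgcggtcag, which has T where the core has A. The 2 sequences below are shown as the contexts of the AP-1 letters in a gene that fell and of the CRE in a gene that was not called, with the matched letters in capitals. The Syt2 sequence (chr1:134709050-134709299, plus strand) ends at the base before the start at 134709300, one of the annotated starts inside the gene, and its match lies 183 to 177 bases before that start. The Syn1 sequence (chrX:20921005-20921168, minus strand) ends where the first annotated exon begins, and its match lies 159 to 152 bases before the RefSeq start at 20920918. A match is a run of letters and not a measured site.
Syt2: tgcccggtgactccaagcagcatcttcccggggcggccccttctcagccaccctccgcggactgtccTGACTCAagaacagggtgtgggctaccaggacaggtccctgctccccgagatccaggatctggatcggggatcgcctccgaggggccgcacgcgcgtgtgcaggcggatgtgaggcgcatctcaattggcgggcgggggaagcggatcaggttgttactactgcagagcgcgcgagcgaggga
Syn1: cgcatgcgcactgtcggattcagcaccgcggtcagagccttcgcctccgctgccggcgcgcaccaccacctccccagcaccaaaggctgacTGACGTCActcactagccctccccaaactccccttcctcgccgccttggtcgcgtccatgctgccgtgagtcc

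Of the 4 SNAREs, Vamp1 fell after SNA in SH. Vamp1 (synaptobrevin 1, chr6:125215551-125245964, plus strand) measured 708, 714 and 697 CPM in SH Sham and 612, 599.8 and 603 CPM in SH SNA. EE Sham held 725, 682 and 679 CPM and EE + SNA 609.8, 591 and 622 CPM. The values within a group were close together, and all SNA samples lay under all sham samples. Vamp1 fell by 14.2% in SH (log2 fold change -0.22 ± 0.05, adjusted P-value 0.0172). Without SH Sham replicate 2 the adjusted P-value was 0.0769, and without SH SNA replicate 3 it was 0.0503. In EE the log2 fold change was -0.20 ± 0.06 (adjusted P-value 0.0725). Snap25, the SNARE of the plasma membrane, was not called, at -0.22 ± 0.07 in SH (adjusted P-value 0.0685) and -0.15 ± 0.08 in EE. Vamp2 and Stx1a lay above 0, at 0.06 and 0.18 in SH and 0.06 and 0.11 in EE, also without a call.

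The partners of the SNAREs held the fall of Cplx2, a complexin (chr13:54371349-54383917, plus strand). Cplx2 was at 291, 279.5 and 304 CPM in SH Sham and at 230.4, 256 and 232 CPM in SH SNA. The EE Sham samples gave 306, 278 and 269.5 CPM and the EE + SNA samples 239.7, 257 and 212 CPM. No SNA sample reached the lowest sham sample. Cplx2 fell by 17.8% in SH (log2 fold change -0.28 ± 0.06, adjusted P-value 0.00802). The EE difference was of nearly the same size at -0.27 ± 0.08 (adjusted P-value 0.0795). The more abundant Cplx1 stood at -0.08 and -0.06, and the ATPase Nsf at -0.07 and -0.12, without a call. Napa (alpha-SNAP) was at 0.15 in SH and 0.13 in EE with samples that did not overlap in either housing, but with adjusted P-values of 0.103 and 0.266, and Napb (beta-SNAP) at 0.03 and -0.05.

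Rims1 was the called gene of the 6 genes of priming and the active zone. Rims1 encodes the scaffold RIM1 (chr1:22286251-22805994, minus strand), which ties Rab3 and calcium channels to the release site, and it measured 49.8, 52.6 and 49.5 CPM in SH Sham and 38.1, 40.1 and 43.1 CPM in SH SNA. Its EE Sham samples were 59.7, 49.0 and 46.3 CPM and its EE + SNA samples 41.5, 45.0 and 36.0 CPM. EE Sham replicate 1 was the highest and EE + SNA replicate 3 the lowest of the 12. Rims1 fell by 0.32 on the log2 scale in SH (SE 0.07, adjusted P-value 0.0101), with adjusted P-values of 0.0577 without SH Sham replicate 2 and 0.0512 without SH SNA replicate 1. In EE it stood at -0.33 ± 0.10 (adjusted P-value 0.0928). Its paralog Rims2 was at 0.01 and -0.13.

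The same pair of EE libraries set the widest spread among the large active zone genes. Pclo, the scaffold piccolo, was at 104, 74.6 and 73.4 CPM in EE Sham and 61.9, 72.3 and 53.8 CPM in EE + SNA, while SH Sham held 68.7 to 75.4 CPM and SH SNA 61.8 to 73.5 CPM. Its log2 fold change was -0.42 ± 0.13 in EE (adjusted P-value 0.0987) and -0.12 ± 0.07 in SH. Bsn, the scaffold bassoon, and the priming factors Unc13a and Unc13b lay between -0.09 and 0.00 in SH and between -0.20 and -0.03 in EE, uncalled.

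Rab3a, the main GTPase of synaptic vesicles (chr8:70754679-70758677, plus strand), read 289, 300.4 and 313 CPM in SH Sham and 241, 253 and 243 CPM in SH SNA. It read 283, 291 and 302 CPM in EE Sham and 247, 253 and 264 CPM in EE + SNA. The SNA samples all lay below the sham samples. Rab3a fell by 18.2% in SH (log2 fold change -0.29 ± 0.05, adjusted P-value 0.00387) and stood at -0.20 ± 0.06 in EE (adjusted P-value 0.0821). Rab3b and Rab3c were not called, at -0.12 and -0.05 in SH and -0.23 and -0.18 in EE.

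Of the vesicle membrane proteins, Sv2b had the smallest adjusted P-value of the 37 genes in both housings. Sv2b is a member of the SV2 family of vesicle glycoproteins (chr7:75114894-75309262, minus strand). The SH Sham samples held 318, 307 and 303 CPM and the SH SNA samples 221, 217 and 222 CPM. In EE Sham the values were 335, 295 and 297 CPM, and in EE + SNA 232, 235 and 232 CPM. The lowest sham sample was thus at 295 CPM and the highest SNA sample at 235 CPM. Sv2b fell by 28.7% in SH (log2 fold change -0.49 ± 0.05, adjusted P-value 7.43e-05) and by 24.9% in EE (-0.41 ± 0.07, adjusted P-value 0.00385).

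Sv2a, its paralog (chr3:96181151-96195521, plus strand), was at 47.5, 49.0 and 56.1 CPM in SH Sham and 38.5, 42.8 and 43.9 CPM in SH SNA. The EE Sham samples held 51.4, 47.1 and 47.6 CPM and the EE + SNA samples 40.8, 41.4 and 49.9 CPM, with replicate 3 of EE + SNA inside the sham range. Sv2a fell by 17.8% in SH (log2 fold change -0.28 ± 0.08, adjusted P-value 0.0411) and was not called in EE (-0.15 ± 0.08, adjusted P-value 0.335). The SH call was kept only when SH Sham replicate 1 was left out. It was lost without SH Sham replicate 2 (adjusted P-value 0.0820), SH Sham replicate 3 (0.154), SH SNA replicate 1 (0.156), SH SNA replicate 2 (0.0561) or SH SNA replicate 3 (0.0501). Sv2c, another SV2 gene, stood at -0.04 ± 0.07 in SH and -0.37 ± 0.17 in EE, where the value rested on EE Sham replicate 1 at 256 CPM and EE + SNA replicate 3 at 117 CPM, and Syp at -0.02 and 0.08. Neither was called.

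None of the 3 synapsins, which tether vesicles in the reserve pool, was called in either housing by edgeR. Syn1 and Syn2 lay at -0.08 and -0.13 in SH and -0.04 and -0.08 in EE. Syn3, the least abundant of them per length, lay at 0.15 ± 0.06 and 0.17 ± 0.10, with an unadjusted P-value of 0.0325 in SH and 0.118 in EE. Its exons share 14.1% of their bases with other genes, mostly Timp3 on the other strand.

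The vesicular glutamate transporters moved apart. Slc17a7 (VGLUT1, chr7:45163949-45176142, plus strand), which is used mainly by large myelinated sensory neurons, was at 189.5, 195 and 206 CPM in SH Sham and 173, 164 and 175 CPM in SH SNA. Its EE Sham samples were 191, 192 and 180.2 CPM and its EE + SNA samples 171, 160.2 and 161 CPM. Slc17a7 fell by 13.1% in SH (log2 fold change -0.20 ± 0.05, adjusted P-value 0.0299) and stood at -0.20 ± 0.06 in EE (adjusted P-value 0.0965). The SH call was lost without SH Sham replicate 2 (adjusted P-value 0.0789), SH Sham replicate 3 (0.09997), SH SNA replicate 1 (0.0679) or SH SNA replicate 2 (0.123). Slc17a6 (VGLUT2), the transporter of most sensory neurons, lay on the other side at 0.17 ± 0.06 in SH (adjusted P-value 0.0750) and 0.10 ± 0.08 in EE. The sparse Slc17a8 lay at -0.22 ± 0.13 and -0.14 ± 0.13.

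Of the genes of vesicle retrieval, Amph fell in both housings. Amphiphysin (chr13:18948205-19150921, plus strand) binds curved membrane and recruits dynamin. It measured 158, 166 and 171 CPM in SH Sham and 129, 144 and 135 CPM in SH SNA. In EE Sham it measured 174, 156 and 162 CPM and in EE + SNA 141, 134 and 135 CPM. The groups did not overlap in either housing. Amph fell by 17.4% in SH (log2 fold change -0.28 ± 0.06, adjusted P-value 0.00851) and by 17.0% in EE (-0.27 ± 0.06, adjusted P-value 0.0351). In EE the call was kept only without EE Sham replicate 2, and the adjusted P-value was 0.105 without EE Sham replicate 1, 0.119 without EE Sham replicate 3, and 0.0919, 0.0898 and 0.0972 without EE + SNA replicates 1, 2 and 3. Dnm1 (dynamin 1), the GTPase that cuts the vesicle free, stood at -0.16 ± 0.07 in SH and -0.12 ± 0.06 in EE, uncalled.

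**Figure D4:**
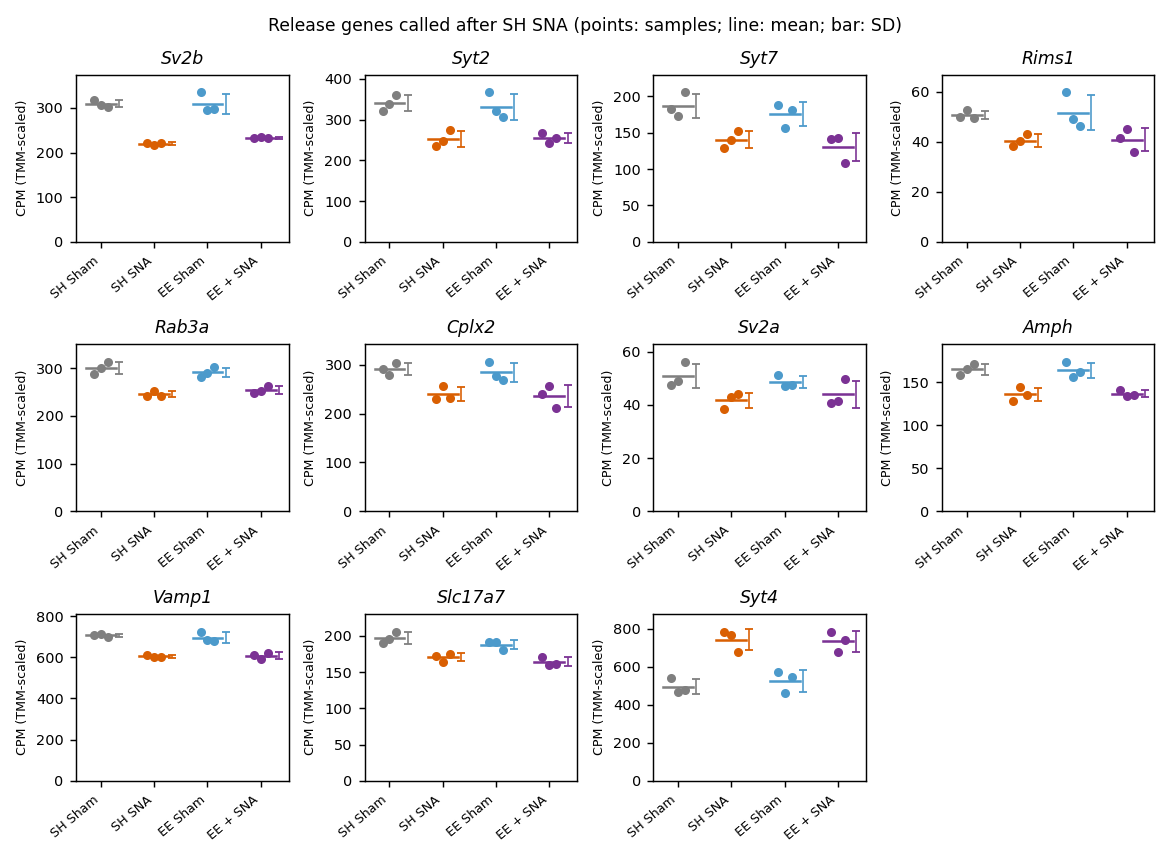
TMM-scaled CPM of the 11 release genes called in SH SNA against SH Sham, ordered by log2 fold change from Sv2b to Syt4, in each sample of the 4 groups, with the mean as a line and the SD as a bar (n = 3) and axes that start at 0. In every panel but that of Sv2a all SNA samples lie on one side of all sham samples, and 7 of the falls are not called when counts are scaled to neuron markers.

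The counts of called members were also taken without the libraries that stood apart. Without SH SNA replicate 2, 9 members were called in SH, the losses being Sv2a and Slc17a7. Without EE + SNA replicate 3, 3 members were called in EE, namely Sv2b, Syt2 and Syt4. The largest drops were to 7 in SH without SH Sham replicate 2, and to the same 3 in EE without EE Sham replicate 1 or 3 or EE + SNA replicate 1. These 3 genes were called in both housings whichever library was left out.

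Ratios of related genes within a library do not depend on how the library is scaled. They can still depend on the mix of cells in the ganglia, where the genes of a ratio are made by different cells. The part of the cell mix in the ratios was not tested. Of 15 such ratios, tested as log2 ratios of counts over all 6 SNA and 6 sham samples with a two-sided exact permutation test, 9 differed at a P-value of 0.05 adjusted over the 15. The smallest P-value this design allows is 0.00216. It was reached by 4 ratios, each with an adjusted P-value of 0.00812 and no overlap between SNA and sham samples.

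Syt4 rose relative to Syt11 by 0.59 on the log2 scale, from -1.43 ± 0.14 (SD, n = 6) in the sham samples to -0.85 ± 0.12 in the SNA samples, with differences of 0.64 in SH and 0.53 in EE. Rims2 rose relative to Rims1 by 0.27, from -0.60 ± 0.09 to -0.33 ± 0.09, with 0.33 in SH and 0.20 in EE. The synaptobrevin ratio of Vamp1 to Vamp2 moved the other way by -0.27, from 0.39 ± 0.11 to 0.11 ± 0.06, with -0.28 in SH and -0.27 in EE. The ratio of VGLUT1 to VGLUT2 RNA, Slc17a7 to Slc17a6, moved by -0.34, from -0.71 ± 0.16 to -1.05 ± 0.05, with -0.37 in SH and -0.31 in EE.

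In 3 further ratios a gene that was called lower in SH also lost share to its paralog, with some overlap of the samples. The ratio of Syt2 to Syt1 moved by -0.29, that of Sv2b to Sv2a by -0.23 and that of Cplx2 to Cplx1 by -0.21, each with an adjusted P-value of 0.0186 in the exact permutation test. Napb to Napa moved by -0.15 and Slc17a8 to Slc17a6 by -0.33, each with an adjusted P-value of 0.0433 in that exact test. These last calls were lost when most single libraries were left out. The first was lost on leaving out any library but SH Sham replicate 2 or EE Sham replicate 2. The second was lost on leaving out any but SH Sham replicate 2, SH SNA replicate 3, EE Sham replicate 3 or EE + SNA replicate 2. Adjusted P-values of the same exact test reached 0.0866 for both. The 6 ratios that were not called were Syt9 to Syt1, Syn2 to Syn1, Sv2c to Sv2a, Rab3b to Rab3a, Rab3c to Rab3a and Unc13b to Unc13a, with differences from -0.05 to 0.13. A ratio shows unequal change and does not say which of its genes moved.

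**Figure D5:**
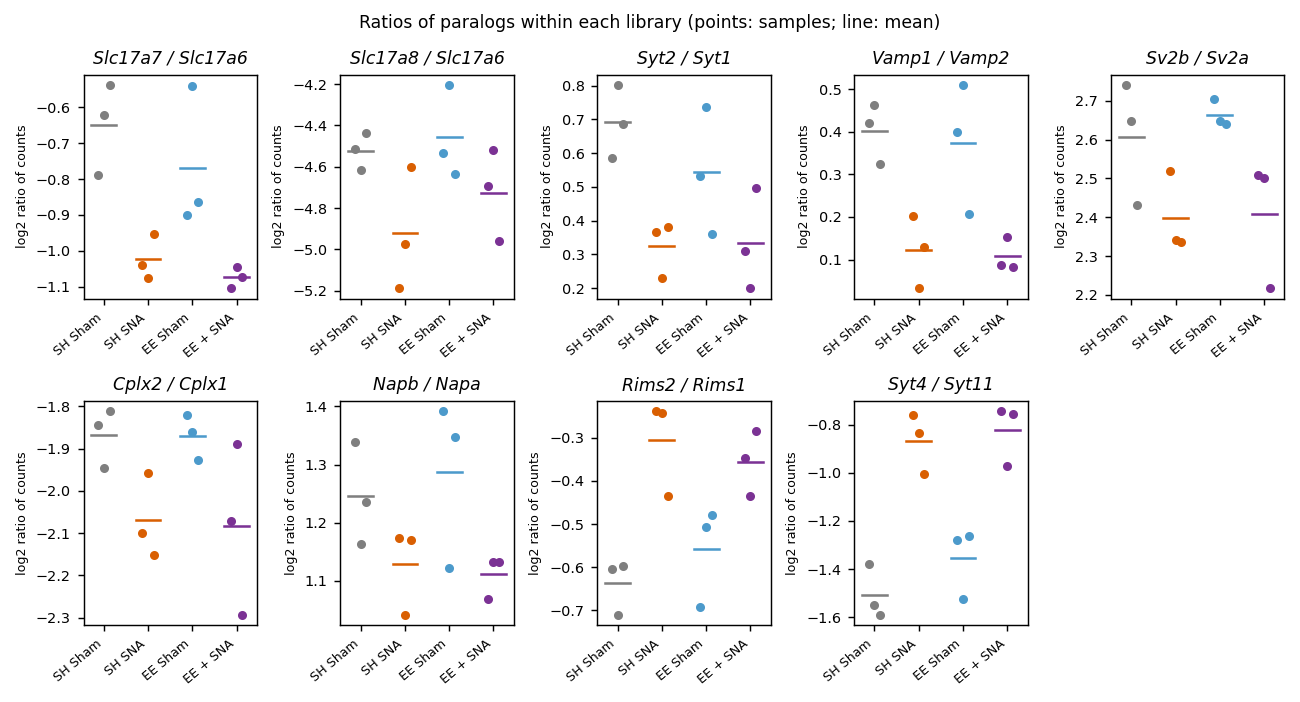
Log2 ratio of the counts of 2 related genes within each library for the 9 ratios with an adjusted P-value below 0.05, by group, with points for samples and lines for means; the axes differ between panels and do not start at 0. Slc17a7 to Slc17a6, Vamp1 to Vamp2, Rims2 to Rims1 and Syt4 to Syt11 have all 6 SNA samples on one side of the 6 sham samples.

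Housing was not followed by a detectable change in any release gene. Between EE Sham and SH Sham, none of the 37 was called by edgeR at an adjusted or an unadjusted P-value of 0.05, where 0.00616% and 2.97% of all genes were called. The log2 fold changes ran from -0.09 (Syt7) to 0.21 (Pclo), with standard errors of 0.06 to 0.11. A fit that blocked on the replicate number was made, since same-numbered samples of these 2 groups had r of 0.111 to 0.331. It called 29 genes in place of 1 in all and still no member, while 1 member passed the unadjusted threshold. DESeq2 called none of the members either.

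Between EE + SNA and SH SNA, which asks what prior enrichment changed in injured ganglia, none of the 37 was called by edgeR or DESeq2, adjusted, and none by edgeR unadjusted, with 0% and 4.1% of all genes called. The differences ran from -0.22 (Sv2c) to 0.19 (Slc17a8) with standard errors of 0.05 to 0.15, and Syt4 and Sv2b stood at -0.02 ± 0.07 and 0.08 ± 0.05. Changes within about 2 standard errors could not be told from 0 at this number of samples. The difference between the injury responses in EE and SH was tested as an interaction over all 12 samples, with no member called adjusted or unadjusted and 0% and 2.61% of all genes called. It ran from -0.32 ± 0.21 (Sv2c) to 0.14 ± 0.12 (Sv2a). The smaller count of calls in EE than in SH is thus no test of a difference between the housings.

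EE + SNA was also set against SH Sham, the control shared with the comparison of SH SNA. Here 10 members were called, Syt4 higher and 9 lower (24.3%, beside 5.63% of all genes lower and 6.87% higher). They were the genes called in SH SNA other than Sv2a, and 6 of them were called without SH Sham replicate 3 or without EE + SNA replicate 1. Side by side, Syt4 stood at 0.57 here and 0.59 in SH SNA, Syt7 at -0.52 and -0.41, Syt2 at -0.42 and -0.43, and Sv2b at -0.41 and -0.49.

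The balance of this comparison turned with the scaling to neuron markers. With it 8 members were called higher, namely the 7 that were higher in SH SNA under that scaling and Syt5, and only Sv2b, Syt2 and Syt7 lower. Of the 16238 genes tested, 4863 were called higher and 305 lower. The 8 of 37 members called higher were thus a smaller share than that of all genes, and the 3 called lower a larger one. The median of the 37 genes was then 0.06, below the 0.19 of all genes, where it had been -0.12 with the usual scaling. Of the 14 neuron markers 6 were called lower here and 8 were lower unadjusted, with a median log2 fold change of -0.19. Among the other cell types 1 of 8 satellite glia, 4 of 8 Schwann cell, 3 of 7 macrophage, 2 of 8 fibroblast and endothelial and 1 of 7 neutrophil markers were called higher, and 3, 7, 4, 3 and 7 of them were higher at an unadjusted P-value of 0.05. The part of these cells in this comparison was not tested.

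A list of 98 other genes of vesicle release and retrieval gave the wider setting, and 91 of them were tested. After SNA, 9 of the 91 were lower and 7 higher in SH, where 5.17% and 6.06% of all genes were called, and 5 were lower and 2 higher in EE, where 2.33% and 2.51% were. The higher calls lay near the share over all genes in both, and the lower calls above it. The median log2 fold changes were -0.03 and -0.09. The 5 largest called falls in SH were those of the synaptotagmin Syt3 (-0.56 in SH, -0.41 in EE), the active zone scaffold Ppfia4 (-0.49 and -0.37), the vesicle GTPase Rab27b (-0.45 and -0.51), Rimkla (-0.40 and -0.39) and the vesicular amino acid transporter Slc6a17 (-0.34 and -0.36). All but Ppfia4 were called in EE as well, where Ppfia4 had an adjusted P-value of 0.0555. Rimkla, an enzyme that joins glutamate to other amino acids, is no part of the release machinery and stands in the list by its name only. It is counted among the 9 lower in SH and the 5 lower in EE.

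The 5 largest called rises in SH were those of Doc2b, a calcium sensor of spontaneous release (0.81 ± 0.22 in SH and 0.06 ± 0.22 in EE), the Rab27 effectors Sytl3 (0.46 and 0.40) and Sytl2 (0.38 and 0.35), and the active zone genes Erc2 (0.26 and 0.15) and Ppfia2 (0.25 and 0.16). Sytl3 and Sytl2 were also called in EE. The remaining gene called in EE was the Rab3 effector Rph3a, at -0.32 in both housings.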

How the data were processed

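The authors aligned paired-end reads to mm10 with TopHat 2.0.12 and Bowtie2 2.2.3 and deposited whole-number read counts per gene name from HTSeq (version 0.6.0 in the submitters' processing notes) and FPKM from the same reads. Counts (46.7% to 47.6% of reads fell on no feature and were left out) were scaled by TMM (factors 0.978 to 1.02) in edgeR 4.0.16, R 4.3.3, filtered with filterByExpr (10 counts, total 15) and tested by the quasi-likelihood F test, two-sided, on the 6 samples of each comparison, with Benjamini-Hochberg adjustment over 16238 genes. Levels are the deposited FPKM, and ratios used counts plus 0.5 (SciPy permutation test). DESeq2 1.42.0, limma 3.58.1 and other alternatives stand in the closing section. Every member is named, with sample values for those called. The members and lists were chosen with earlier results of these data known. Replicates differed beyond counting noise (chi-square per degree of freedom 3.9 to 8.76), and P-values measure the spread between pools. The labels do not say what a replicate number marks. Same-numbered samples of EE Sham and SH Sham deviated together in part (r = 0.331, 0.137 and 0.111). The highest r of differently numbered samples of these groups was 0.194.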

Additional observations from a re-analysis of the deposited data

How the results depend on the processing

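Syt2, Syt4 and Sv2b kept their direction and call in SH under all 16 alternatives, and in EE under all but limma on log2(FPKM + 0.1). The count of members called in SH, 11 in the main test, was 4 with limma on log2(FPKM + 0.1) and 7 to 12 when a library was left out, the lowest without SH Sham replicate 2. The count in EE, 5 in the main test, was 9 with DESeq2, 8 with the likelihood ratio test, 9 without a filter, 8 with a replicate block, 11 with all 12 samples in a single fit, 3 with limma on log2(FPKM + 1), 0 with limma on log2(FPKM + 0.1), and 3 to 5 when a library was left out, with 3 without EE Sham replicate 1 or 3 or EE + SNA replicate 1 or 3. The count in EE + SNA against SH Sham, 10 in the main test, was 3 with limma on log2(FPKM + 0.1) and 6 to 10 when a library was left out, with 6 without SH Sham replicate 3 or EE + SNA replicate 1. These counts can include members not called in the main test. The cause was not tested. The other alternatives kept the counts within 1.5 times, and the counts of 0 for housing and the interaction stayed 0 in all.

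A replicate block in the fit called 14 members in SH, 8 in EE and 10 in EE + SNA against SH Sham. Same-numbered samples did not deviate together in these comparisons (lowest r = -0.235, -0.142 and -0.173). Between EE + SNA and SH SNA their r was 0.0573, 0.113 and 0.126. These values were small but all above the highest r of differently numbered samples (0.0403). A replicate block called no member in that comparison. For the ratios, flipping the signs of the 6 differences of same-numbered samples allows no P-value below 0.0312 before adjustment. None of the 9 passed this sign-flip test after adjustment, and a floor so near 0.05 leaves it little room to call any. The ratios Napb to Napa and Slc17a8 to Slc17a6 lost the call when most single libraries were left out. All members passed the filter on low counts, and 3 samples a group leave standard errors of 0.05 to 0.13 in SH on the log2 scale. In EE they were 0.06 to 0.17. The widest in SH was that of Slc17a8, with 127 to 244 reads per SH sample. The part of depth in these errors was not tested.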
